A study of Mus musculus with 6 samples.

Results

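The genes described here are the 2 co-activators YAP (Yap1) and TAZ (Wwtr1), the 4 TEAD transcription factors (Tead1 to Tead4) and 4 of their best known targets (Ccn1, Ccn2, Ankrd1 and Amotl2). They were taken by gene symbol from a deposited expression table, and all 10 symbols were found among its 17924 genes. RNA-seq had been performed on CTL and Nelfb-/- cells, 3 libraries each, after 14 days in adipocyte differentiation medium. The cells were fibroblasts taken from the dorsal dermis of newborn (P0) mice on a C57BL/6J background. Nelfb-/- cells came from Nelfb fl/fl Pdgfra-Cre+ mice, in which Cre is made in cells of the Pdgfra lineage, the lineage of preadipocytes and of most dermal fibroblasts. CTL cells came from Nelfb fl/wt or Nelfb wt/wt mice that carried the same Pdgfra-Cre, and which of these 2 genotypes each CTL library had is not stated. The libraries are biological triplicates, and the animals behind each are not given, so the p-values measure the spread between these cultures.

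YAP and TAZ are the nuclear effectors of the Hippo pathway. Its kinases MST1 and MST2 (Stk4 and Stk3) activate the kinases LATS1 and LATS2, which phosphorylate YAP and TAZ. Phosphorylation keeps YAP and TAZ in the cytoplasm, whereas on stiff substrates and in spread cells YAP and TAZ enter the nucleus. They do not bind DNA by themselves and act through TEAD factors, which recognise the letters GGAATG, read as CATTCC on the other strand. In mesenchymal cells TAZ is known to bind PPARG and restrain it, so that the pathway is studied as a brake on fat cell formation. The NELF complex, to which Nelfb belongs, holds RNA polymerase II in a paused state shortly after the start of transcription.

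The promoters of the targets are shown first because TEAD factors act through letters of this kind. RefSeq windows from 250 bases before to 50 bases after the start site (GRCm38.p6) were matched for 7 of the 10 genes, and Tead1, Tead4 and Ccn2 were not matched. Of these 7 genes, 6 held GGAATG or CATTCC in at least 1 window, namely Yap1, Wwtr1, Tead3, Ccn1, Ankrd1 and Amotl2. By comparison, 14.7% of all 32851 windows and 16.6% of the 27025 genes held it. The letters are given below 5′ to 3′ on the strand of the gene, with the matched letters in capitals. A match describes the sequence and is not a measured binding site. The Ccn1 promoter (chr3:145649986-145650235, minus strand) has its match starting 103 bases before the start site:
Ccn1 promoter: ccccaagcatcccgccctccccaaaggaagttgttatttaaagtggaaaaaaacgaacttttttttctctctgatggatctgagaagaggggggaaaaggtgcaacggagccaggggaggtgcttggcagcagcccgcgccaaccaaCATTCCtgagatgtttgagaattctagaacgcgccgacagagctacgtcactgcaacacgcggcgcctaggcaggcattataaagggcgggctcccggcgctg
The matches of the other targets and of the 2 co-activators are given with 30 bases each. They start 65 bases before the start site in Amotl2 (chr9:102717727-102717756, plus strand), 210 and 123 bases before it in Ankrd1 (chr19:36120037-36120066 and chr19:36119950-36119979, minus strand), 141 bases before it in Yap1 (chr9:8004720-8004749, minus strand) and 136 bases before it in Wwtr1 (chr3:57576029-57576058, minus strand). The stretches of Amotl2 and Ankrd1 touch exons of annotated transcripts (GENCODE vM21), and those of Yap1, Wwtr1 and Ccn1 do not.
Amotl2: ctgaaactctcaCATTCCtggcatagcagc
Ankrd1, outer match: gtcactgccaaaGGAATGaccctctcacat
Ankrd1, inner match: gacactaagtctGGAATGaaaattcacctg
Yap1: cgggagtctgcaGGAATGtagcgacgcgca
Wwtr1: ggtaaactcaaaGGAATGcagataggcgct
The longer form GGAATGT, which reads ACATTCC on the other strand, includes the shorter one. It was found in 3.85% of all windows and in 4.47% of the 27025 genes. Ccn1, Amotl2, Yap1 and Tead3 held it, whereas Ankrd1 and Wwtr1 did not.

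Expression is given in CPM, that is, for every 1000000 reads that fell on the listed genes, and it is not corrected for gene length. The 3 values of a group always stand in the order of replicates 1, 2 and 3. The depth worked out from the table ranged from 17180000 to 29410000 reads for a library, and a floor of 3 reads was worth 0.102 to 0.175 CPM. Nelfb, the deleted gene, was measured at 17.3, 19.6 and 22.3 CPM in the CTL libraries, against 5.50, 3.90 and 5.55 CPM in the Nelfb-/- libraries, a fall of 3.96-fold in the means, so that its RNA was reduced and not absent. Of the labelled cell type, all 8 adipocyte markers were measured in both groups. Of these, 6 were lower and 2 higher in Nelfb-/- cells, and their log2 fold changes had a median of -0.50. The groups were apart at 3 of the lower ones and at 1 of the higher ones, Lep. Of all genes tested, 16.1% were apart and lower and 22.0% apart and higher. For Adipoq, Fabp4, Plin1 and Pparg the change was -1.07, -1.04, -1.02 and -0.51 (limma, adjusted p = 0.14, 0.24, 0.12 and 0.11). The hormone gene Lep rose past the limits given below, and the other 7 did not pass, where 11.2% of all genes tested passed. The sum of the 8 adipocyte markers was 22480 to 36620 CPM over the CTL libraries and 14490 to 22940 CPM over the Nelfb-/- libraries. CTL replicate 3 and Nelfb-/- replicate 1 stood apart from the other libraries of their groups on the second principal component, which held 27.7% of the variance. Several of the genes below divided the libraries in the same way.

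Of the 10 genes, only Tead4 changed past the limits in Nelfb-/- cells, and it was downregulated. The limits were an adjusted p of at most 0.05 in limma over the 16252 genes tested and a change of at least 2-fold, and 11.2% of all genes tested passed them (7.58% higher and 3.64% lower in Nelfb-/- cells). The share of the 10 genes, 10%, was thus near that of all genes. With quantile normalisation, a scaling that moved the median log2 fold change of all genes from 0.068 to -0.068, 1014 genes were higher and 834 lower in place of 1232 and 592. Among the 10 genes, 4 had a positive and 6 a negative log2 fold change, with a median of -0.10 against 0.07 for all genes tested. The groups did not overlap at 2 of them, Tead4 and Ankrd1, both lower in Nelfb-/- cells. Of all genes tested, 38.1% did not overlap, with 22.0% higher and 16.1% lower. All 10 genes were well above the floor, from 31 reads for Tead4 in its lowest library to 14490 reads for Ccn1 in its highest. In bulk samples, fewer cells of a type and less RNA per cell cannot be told apart.

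**Figure D1:**
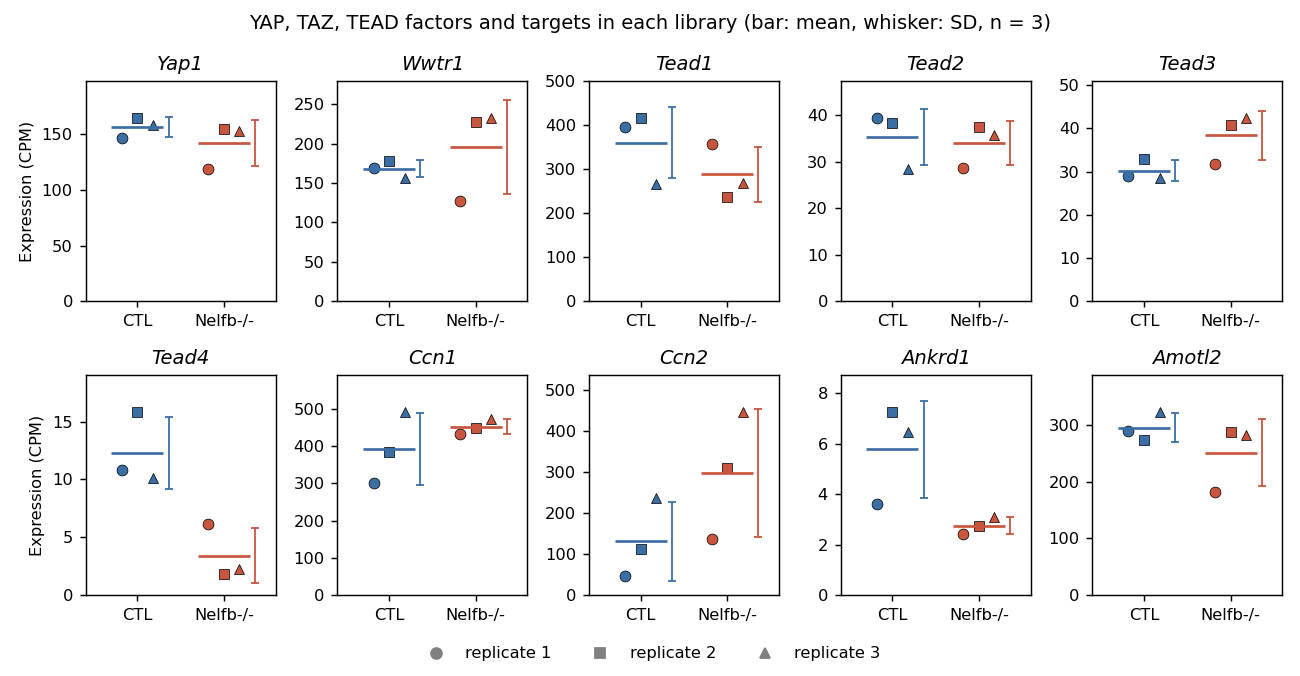
CPM of each of the 10 genes in the 3 CTL libraries (blue) and the 3 Nelfb-/- libraries (red), with the symbol giving the replicate, the bar the mean and the whisker the SD. Every Nelfb-/- library lies below every CTL library for Tead4 and Ankrd1, and the groups overlap for the other 8 genes.

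**Figure D2:**
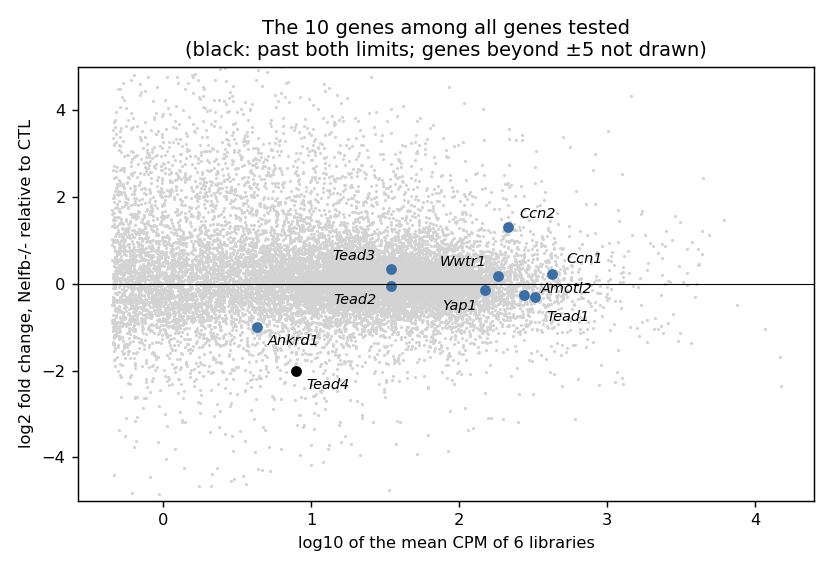
Log2 fold change of Nelfb-/- relative to CTL cells (vertical) against the log10 of the mean CPM of 6 libraries (horizontal) for the 16252 genes tested, in grey with changes beyond 5 in size not drawn, and with the 10 genes named. Tead4 (black, -2.02) is past both limits, Ccn2 lies at 1.31 and Ankrd1 at -1.0, and the other 7 lie between -0.31 and 0.34.

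The 2 co-activators were expressed in all libraries, and neither passed the limits. Yap1 (ENSMUSG00000053110, chromosome 9, 7931999 to 8004596 on mm10) was found at 147, 165 and 159 CPM in the CTL libraries, against 119, 155 and 153 CPM in the Nelfb-/- libraries. Nelfb-/- replicate 1 was the lowest library, and the other Nelfb-/- libraries lay within the range of CTL. The log2 fold change of Yap1 was -0.15, with an SE of 0.15 and a 95% interval from -0.52 to 0.22 (limma, adjusted p = 0.54), so that the interval holds no change as large as 2-fold in either direction. Wwtr1 (ENSMUSG00000027803, chromosome 3, 57455649 to 57575910), the gene of TAZ, had 170, 178 and 156 CPM in the CTL libraries, against 127, 228 and 233 CPM in the Nelfb-/- libraries. Here the Nelfb-/- libraries split to both sides of CTL, with replicate 1 below and replicates 2 and 3 above every CTL library. The log2 fold change of Wwtr1 was 0.17, with an SE of 0.26 and a 95% interval from -0.44 to 0.78 (limma, adjusted p = 0.69). Without Nelfb-/- replicate 1 it was 0.46 (limma, adjusted p = 0.058). Per kb of exon, TAZ RNA was above YAP RNA in all 6 libraries, at 2.23, 2.09 and 1.91 times in CTL replicates 1, 2 and 3 and at 2.07, 2.85 and 2.95 times in the Nelfb-/- replicates. These ratios rest on the length of all annotated exons together, 9257 bases for Yap1 and 4779 bases for Wwtr1. The lengths of the RNAs present in these cells were not measured. In CPM the CTL values of the 2 genes were close, and Yap1 was above Wwtr1 in CTL replicate 3.

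Among the TEAD factors, Tead4 fell in Nelfb-/- cells, whereas Tead1, Tead2 and Tead3 did not pass the limits. The 4 genes encode DNA-binding proteins with the same TEA domain, and TEAD4 is best known from the trophectoderm of the early embryo and from muscle. Tead4 (ENSMUSG00000030353, chromosome 6, 128224288 to 128300823) was found at 10.8, 15.9 and 10.1 CPM in the CTL libraries, against 6.12, 1.80 and 2.28 CPM in the Nelfb-/- libraries. All Nelfb-/- libraries were below all CTL libraries, and Nelfb-/- replicate 1 was the one nearest to CTL. The mean was 12.3 ± 3.13 CPM in CTL (SD, n = 3), against 3.40 ± 2.36 CPM in Nelfb-/- cells. Its log2 fold change was -2.02 (SE 0.48, 95% interval -3.16 to -0.88, limma, adjusted p = 0.036), a 4.05-fold decrease on the log2 scale, where the means of the CPM values differed 3.61-fold. The direction was the same in all 15 alternatives, but the call was lost without CTL replicate 1 (-2.09, limma, adjusted p = 0.10), CTL replicate 2 (-1.82, adjusted p = 0.13), Nelfb-/- replicate 2 (-1.67, adjusted p = 0.098) or Nelfb-/- replicate 3 (-1.84, adjusted p = 0.13). It remained without CTL replicate 3 and without Nelfb-/- replicate 1 (-2.54, adjusted p = 0.011).

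Tead1 (ENSMUSG00000055320, chromosome 7, 112679318 to 112906807) had the highest level per kb of exon of the 4. It was measured at 396, 417 and 268 CPM in the CTL libraries, against 358, 238 and 269.7 CPM in the Nelfb-/- libraries. CTL replicate 3 lay with Nelfb-/- replicates 2 and 3, whereas Nelfb-/- replicate 1 lay near the other CTL libraries. For Tead1 the log2 fold change was -0.31 (SE 0.24, 95% interval -0.90 to 0.27, limma, adjusted p = 0.42). Tead2 (ENSMUSG00000030796, chromosome 7, 45215753 to 45233644) reached 39.5, 38.3 and 28.5 CPM in the CTL libraries, against 28.6, 37.6 and 35.8 CPM in the Nelfb-/- libraries, and its log2 fold change was -0.05 (95% interval -0.50 to 0.40, limma, adjusted p = 0.87). The same 2 libraries, CTL replicate 3 and Nelfb-/- replicate 1, were the low ones of their groups. Tead3 (ENSMUSG00000002249, chromosome 17, 28331671 to 28350817) reached 29.0, 33.0 and 28.5 CPM in the CTL libraries, against 31.8, 40.7 and 42.4 CPM in the Nelfb-/- libraries, with a log2 fold change of 0.34 (95% interval -0.05 to 0.72, limma, adjusted p = 0.20). Only Nelfb-/- replicate 1 overlapped with CTL.

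Per kb of exon, the 4 TEAD genes summed to 44.8, 48.1 and 32.8 CPM per kb in CTL and to 38.8, 32.0 and 34.3 CPM per kb in Nelfb-/- cells, and the groups overlapped. Tead1 made up between 54.9% and 68.0% of this sum in the 6 libraries. The share of Tead4 was 6.72%, 9.17% and 8.60% in CTL replicates 1, 2 and 3 and 4.38%, 1.57% and 1.85% in Nelfb-/- replicates 1, 2 and 3. In Nelfb-/- replicates 2 and 3, Tead3 made up 19.0% and 18.4%, above the 9.67% to 13.0% of the CTL libraries, whereas Nelfb-/- replicate 1 had 12.2%. The shares follow from the same values as the fold changes above and were not tested.

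**Figure D3:**
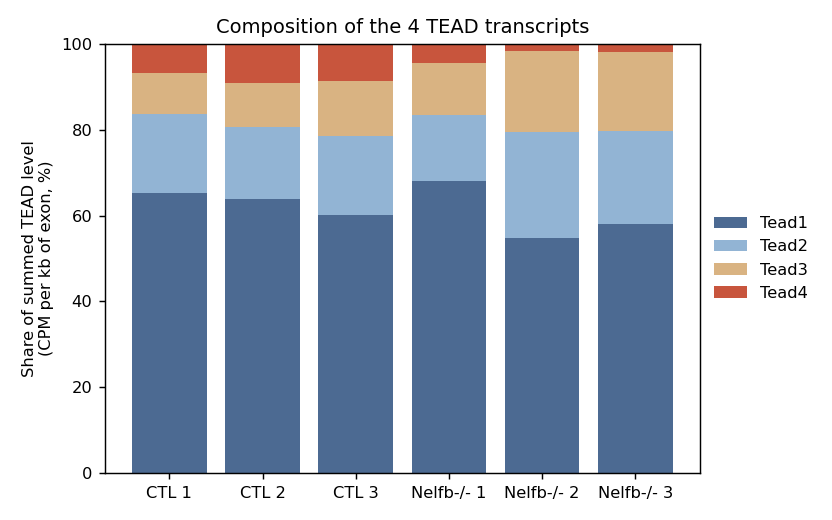
Share of each TEAD gene (%, stacked) in the summed level of Tead1 to Tead4, taken as CPM per kb of exon, in each of the 6 libraries. Tead1 is the largest share throughout, and the share of Tead4 is 6.72% to 9.17% in CTL and 1.57% to 4.38% in Nelfb-/- libraries.

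In limma, 0 of the 4 target genes passed the limits and 1, Ankrd1, had an unadjusted p under 0.05, as had 32.5% of all genes tested. The log2 fold change was positive for 2 and negative for 2 of them, with a median of -0.01. Ankrd1 was lower in every Nelfb-/- library, Ccn2 was high in 2 of the 3 Nelfb-/- libraries, and the groups overlapped at Ccn1 and Amotl2. Ankrd1 (ENSMUSG00000024803, chromosome 19, 36111961 to 36120099) encodes an ankyrin repeat protein of muscle sarcomeres and the nucleus. It was measured at 3.61, 7.28 and 6.46 CPM in the CTL libraries, against 2.42, 2.74 and 3.10 CPM in the Nelfb-/- libraries. The Nelfb-/- libraries lay close together and below CTL, whereas CTL replicate 1 was nearer to them than to the other CTL libraries. The log2 fold change of Ankrd1 was -1.0 (SE 0.32, 95% interval -1.77 to -0.24, limma, adjusted p = 0.082). With quantile normalisation it was -1.30 (limma, adjusted p = 0.035) and passed.

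Ccn2 (ENSMUSG00000019997, chromosome 10, 24595442 to 24598683) encodes connective tissue growth factor, a secreted matrix-associated protein. Its values were 46.1, 113 and 236 CPM in the CTL libraries, against 137, 308 and 446 CPM in the Nelfb-/- libraries. CTL replicate 3 was above Nelfb-/- replicate 1, and the spread was wide within both groups. The mean was 2.26-fold higher in Nelfb-/- cells, with a log2 fold change of 1.31 (SE 0.67, 95% interval -0.29 to 2.92, limma, adjusted p = 0.23), so that neither no change nor a change above 4-fold lies outside the interval. Of the 2 libraries that stood apart, leaving out CTL replicate 3 gave 1.88 (limma, adjusted p = 0.080) and leaving out Nelfb-/- replicate 1 gave 1.79 (adjusted p = 0.12). Of the other libraries, leaving out CTL replicate 1, the lowest, gave 0.71 (limma, adjusted p = 0.52), and leaving out Nelfb-/- replicate 3, the highest, gave 0.94 (adjusted p = 0.51). Ccn2 passed the limits with a block for the replicate number (1.31, limma, adjusted p = 0.012). Whether these numbers pair the libraries is not stated. It also passed with library weights (2.81, limma, adjusted p = 0.00011), which rest on 1 library. An RNA on the opposite strand, Gm15270, overlaps Ccn2 by 1667 bases and had 0.613 to 3.25 CPM.

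Ccn1 (ENSMUSG00000028195, chromosome 3, 145646976 to 145649981), the gene of the related secreted protein CYR61, had 299.7, 384 and 493 CPM in the CTL libraries, against 433, 449 and 474 CPM in the Nelfb-/- libraries. All Nelfb-/- values fell between CTL replicates 2 and 3. For Ccn1 the log2 fold change was 0.23 (95% interval -0.28 to 0.74, limma, adjusted p = 0.49). Amotl2 (ENSMUSG00000032531, chromosome 9, 102716672 to 102733418) encodes a scaffold protein that binds YAP and holds it outside the nucleus, and its induction by YAP is a known feedback. It had 289, 273 and 324 CPM in the CTL libraries, against 183, 288 and 283 CPM in the Nelfb-/- libraries, with Nelfb-/- replicate 1 as the only library apart from the rest. Its log2 fold change was -0.26 (95% interval -0.78 to 0.26, limma, adjusted p = 0.45), and it was -0.045 without Nelfb-/- replicate 1.

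**Figure D4:**
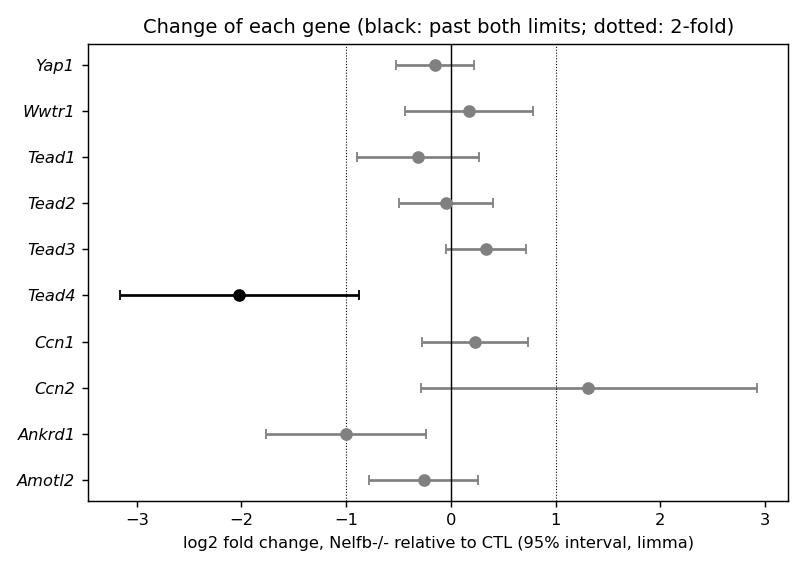
Log2 fold change of each gene in Nelfb-/- relative to CTL cells (points) with its 95% interval from limma (bars), and dotted lines at 2-fold. The interval of Tead4 lies from -3.16 to -0.88, that of Ankrd1 from -1.77 to -0.24, and those of the other 8 genes include 0.

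Per kb of exon, Ccn1 had the highest level of the 10 genes in both groups, with 194 ± 47.9 CPM per kb (SD, n = 3) in CTL and 224 ± 10.2 CPM per kb in Nelfb-/- cells. In CTL it was followed by Amotl2 (47.0 ± 4.13 CPM per kb), Ccn2 (46.0 ± 33.6), Wwtr1 (35.2 ± 2.31), Tead1 (26.5 ± 5.96), Yap1 (16.9 ± 0.972), Tead2 (7.40 ± 1.26), Tead3 (4.50 ± 0.366), Tead4 (3.41 ± 0.870) and Ankrd1 (2.0 ± 0.668). The CTL libraries of Amotl2 and Ccn2, of Ccn2 and Wwtr1 and of Tead3 and Tead4 overlapped, and the other neighbours were apart. Within a library, Tead3 was above Tead4 in all 3 CTL libraries, whereas the order of Amotl2 and Ccn2 and that of Ccn2 and Wwtr1 changed from library to library. In Nelfb-/- cells Ccn2 was second with 104 ± 54.1 CPM per kb, and its range overlapped with that of Wwtr1, although it was above Wwtr1 within each of the 3 libraries. Ankrd1 and Tead4 were at the end with 0.953 ± 0.118 and 0.946 ± 0.657 CPM per kb, and their order changed between libraries.

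The Hippo genes upstream of YAP and TAZ were examined next. Of a list of 28 Hippo genes, 27 were tested, and 1, Ajuba, passed both limits (3.70%, where 11.2% of all genes did). Their median log2 fold change was 0.06, with 16 genes higher and 11 lower. Of the 7 genes of the kinase core (Stk3, Stk4, Sav1, Lats1, Lats2, Mob1a and Mob1b), 0 passed in limma and 1, Stk4, had an unadjusted p under 0.05, as had 32.5% of all genes. Their log2 fold changes in limma ran from -0.33 for Lats1 (adjusted p = 0.25) to 0.59 for Stk4 (adjusted p = 0.058). Ajuba (ENSMUSG00000022178, chromosome 14, 54567472 to 54577558) encodes a LIM protein that binds LATS kinases and restrains them. It had 10.5, 9.61 and 9.32 CPM in the CTL libraries, against 16.7, 20.5 and 23.1 CPM in the Nelfb-/- libraries, and all Nelfb-/- libraries lay above all CTL libraries. Ajuba changed by 1.02 on the log2 scale (SE 0.18, limma, adjusted p = 0.016), at the 2-fold limit. It fell below that limit with median-of-ratios scaling (0.95) and quantile normalisation (0.88), and its call was also lost in 5 of 6 fits on 5 libraries, all but the one without Nelfb-/- replicate 1.

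Without the fold limit, 5 of the 27 Hippo genes passed an adjusted p of 0.05, or 4 higher and 1 lower, where 15.8% of all genes passed (9.96% higher and 5.83% lower). Besides Ajuba, these were Taok3, a kinase that acts on MST1 and MST2 (log2 fold change 0.96, limma, adjusted p = 0.037), Vgll3, a cofactor that binds TEAD factors in place of YAP (0.86, adjusted p = 0.021), Dlg5, a scaffold protein (0.53, adjusted p = 0.049), and Amotl1. Amotl1, a close relative of Amotl2, was measured at 235, 232 and 216 CPM in the CTL libraries, against 155, 132 and 141 CPM in the Nelfb-/- libraries. For Amotl1 the log2 fold change was -0.68 (SE 0.13, 95% interval -0.99 to -0.37, limma, adjusted p = 0.019), and the groups were apart. Vgll3 had 101, 94.1 and 133 CPM in the CTL libraries, against 199, 182 and 212 CPM in the Nelfb-/- libraries, and the groups were apart as well. Frmd6, an upstream activator of the pathway, had CTL replicate 3 level with Nelfb-/- replicate 1, with 31.8, 25.6 and 74.7 CPM in the CTL libraries, against 72.9, 100.4 and 105 CPM in the Nelfb-/- libraries (log2 fold change 1.22, limma, adjusted p = 0.089).

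A list of 18 other genes known as targets of YAP, TAZ and TEAD was also followed. All 18 were tested, and 5 passed both limits, of which 4 (Myof, Nuak2, Fjx1 and Igfbp3) rose and 1 (Nt5e) fell in Nelfb-/- cells. This share was 27.8% against 11.2% for all genes, and the median log2 fold change of the list was 0.08, close to the 0.07 of all genes. Myof, a membrane repair protein, had 37.3, 35.1 and 105 CPM in the CTL libraries, against 183, 173 and 194 CPM in the Nelfb-/- libraries (log2 fold change 1.83, SE 0.42, limma, adjusted p = 0.032). CTL replicate 3 was the CTL library nearest to the Nelfb-/- cells. Nuak2, a kinase related to AMPK, had 2.12, 1.31 and 4.22 CPM in the CTL libraries, against 8.44, 7.92 and 7.34 CPM in the Nelfb-/- libraries, with the same library nearest (1.77, SE 0.42, limma, adjusted p = 0.037). Igfbp3, a secreted binder of insulin-like growth factors, rose from 939 ± 229.9 CPM (SD, n = 3) to 1998 ± 232 CPM (1.11, limma, adjusted p = 0.037). Fjx1, a secreted kinase-related protein, rose from 5.01 ± 0.389 CPM to 12.7 ± 4.98 CPM (1.27, limma, adjusted p = 0.032). Its Nelfb-/- libraries had 18.4, 9.84 and 9.79 CPM, and without Nelfb-/- replicate 1 its change was 0.97, below the fold limit. With quantile normalisation the calls of Igfbp3 (1.11, limma, adjusted p = 0.053) and Fjx1 (1.06, adjusted p = 0.065) were lost.

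Nt5e encodes CD73, an enzyme of the cell surface that makes adenosine and a marker of mesenchymal stromal cells. It was measured at 100, 112 and 242 CPM in the CTL libraries, against 7.21, 29.5 and 28.7 CPM in the Nelfb-/- libraries. The groups were far apart, and the log2 fold change was -2.92 (SE 0.62, 95% interval -4.40 to -1.45, limma, adjusted p = 0.026). Without 1 of 4 libraries all 5 calls were lost, namely without CTL replicate 1, CTL replicate 2, Nelfb-/- replicate 2 or Nelfb-/- replicate 3, where the adjusted p of Nt5e was 0.051 to 0.076. Myof, Nt5e and Nuak2 passed without CTL replicate 3, and Nt5e (-2.26, limma, adjusted p = 0.022) and Gadd45a passed without Nelfb-/- replicate 1. The other 13 targets did not pass, among them Axl (0.30, limma, adjusted p = 0.42), Lats2 (0.04, adjusted p = 0.85) and Ptpn14 (-0.61, adjusted p = 0.15).

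**Figure D5:**
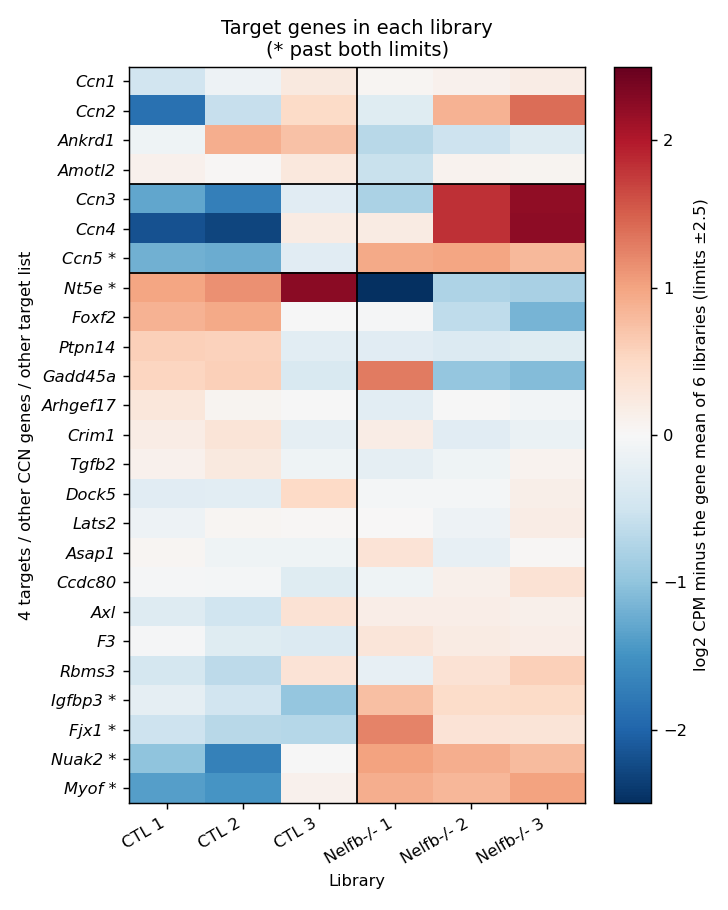
Log2 CPM minus the mean of the 6 libraries (colour, red above and blue below the mean) for the 4 targets (top), Ccn3, Ccn4 and Ccn5 (middle) and the 18 other targets (bottom, ordered by log2 fold change) in each library, with an asterisk for genes past both limits. Nt5e is high in all CTL libraries and Myof and Ccn5 in all Nelfb-/- libraries, whereas Ccn2, Ccn3 and Ccn4 are highest in Nelfb-/- replicates 2 and 3.

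The other CCN genes encode secreted proteins of the same family as CCN1 and CCN2. Of 4 further family members, 3 were tested, all had positive log2 fold changes, and 1, Ccn5, passed the limits. Of all 16252 genes tested, 8868 had a positive log2 fold change and 11.2% passed, and the 3 genes were not tested against them as a list. Ccn5 (ENSMUSG00000027656, chromosome 2, 163820861 to 163833146) is known as a Wnt-induced protein of mesenchymal precursor cells. It was measured at 38.6, 37.2 and 72.2 CPM in the CTL libraries, against 170, 174 and 156 CPM in the Nelfb-/- libraries, with the groups apart (log2 fold change 1.82, SE 0.27, 95% interval 1.18 to 2.47, limma, adjusted p = 0.0098). It no longer passed when Nelfb-/- replicate 3 was left out (1.87, limma, adjusted p = 0.052). Ccn4 had 13.3, 12.2 and 69.1 CPM in the CTL libraries, against 69.0, 211 and 283 CPM in the Nelfb-/- libraries, and CTL replicate 3 and Nelfb-/- replicate 1 were level (2.84, SE 0.80, limma, adjusted p = 0.060). Ccn3 had 11.5, 8.63 and 23.4 CPM in the CTL libraries, against 16.5, 101 and 132 CPM in the Nelfb-/- libraries (2.18, SE 0.81, limma, adjusted p = 0.12). In Ccn2, Ccn3 and Ccn4 alike, Nelfb-/- replicate 1 was the lowest of its group and CTL replicate 3 the highest of its own. Ankrd23, a relative of Ankrd1, had 2.14 to 5.31 CPM over the CTL libraries and 2.65 to 8.13 CPM over the Nelfb-/- libraries (0.27, limma, adjusted p = 0.75).

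SRF and its cofactors share several targets with YAP, Ccn1, Ccn2 and Ankrd1 among them, and answer to the state of actin. Of the 12 genes of a list for SRF and actin, 0 passed both limits in limma, and 5 had an unadjusted p under 0.05, where 32.5% of all genes had one. The log2 fold change was positive for 9 and negative for 3 of the 12, with a median of 0.33 against 0.07 for all genes tested. The groups were apart at 6 of the higher and 1 of the lower genes. Of all genes tested, 22.0% were apart and higher and 16.1% apart and lower. Flna, which crosslinks actin, passed an adjusted p of 0.05 without the fold limit (0.87, limma, adjusted p = 0.043). Srf itself had 63.5, 72.3 and 54.2 CPM in the CTL libraries, against 48.1, 37.3 and 37.4 CPM in the Nelfb-/- libraries (-0.63, limma, adjusted p = 0.054). Mrtfa and Tpm1, both with the groups apart, had log2 fold changes of 0.61 (limma, adjusted p = 0.076) and 0.60 (adjusted p = 0.099). Acta2 and Tagln, the myofibroblast genes, had log2 fold changes of -0.14 (limma, adjusted p = 0.83) and 0.08 (adjusted p = 0.90).

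Markers of some other cell types differed between the groups, and those of others overlapped. The sum of 6 macrophage markers was 94.5 to 355 CPM over the CTL libraries and 728 to 2110 CPM over the Nelfb-/- libraries, with its highest value in Nelfb-/- replicate 1, and 5 of the 6 genes rose past the limits. The markers of fibroblasts summed to 3085 to 12030 CPM over the CTL libraries and 6114 to 25290 CPM over the Nelfb-/- libraries, with CTL replicate 3 the highest and Nelfb-/- replicate 1 the lowest of its group, as for Ccn2, Ccn3 and Ccn4, and 0 of the 8 passed the limits in limma (4 at an unadjusted p under 0.05, against 32.5% of all genes). All 5 melanocyte markers, 4 of 4 tested markers of skeletal muscle and 2 of 4 tested Schwann cell markers rose, whereas 1 Schwann cell marker, Mbp, fell. The melanocyte gene Tyr was listed at 0 in all CTL libraries. The sums of these 3 lists reached 72.1, 57.3 and 115 CPM in Nelfb-/- cells against at most 1.43, 6.39 and 58.1 CPM in CTL. Past the limits, 1 of 5 endothelial, 1 of 4 tested keratinocyte and 1 of 5 smooth muscle markers rose, where 11.2% of all genes passed (7.58% higher). The endothelial sums overlapped, with 6.70 to 10.4 CPM over the CTL libraries and 7.63 to 21.3 CPM over the Nelfb-/- libraries, and so did those of smooth muscle, with 634 to 924.5 CPM and 402 to 1022 CPM. The keratinocyte sums did not, with 2.75 to 3.17 CPM and 6.69 to 14.6 CPM. The part of these cells in the values of Tead4, Ankrd1 and the target genes was not tested. Cd37, a gene of white blood cells whose end overlaps that of Tead2 by 13 bases on the opposite strand, was at 1.87 to 6.58 CPM over the CTL libraries and 8.50 to 49.9 CPM over the Nelfb-/- libraries.

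The genes with the most similar profile were sought for Yap1, Ccn1 and Ccn2, by the root mean square difference of gene-centred log2 values over the 6 libraries. For Ccn2 they were Syt13 (0.24), Rprm (0.27) and Parpbp (0.28). Syt13 had 22.6, 44.5 and 86.0 CPM in the CTL libraries, against 63.7, 115 and 132 CPM in the Nelfb-/- libraries, which is the same order of the libraries as in Ccn2. For Yap1 they were Atl3, Dbr1 and Ficd (0.043 to 0.053) and for Ccn1 Tvp23b, Pcdhga3 and Meak7 (0.071 to 0.075). The latter say little, since 1809 genes lay within 0.2 of Yap1 and 1123 within 0.2 of Ccn1, whereas 0 did so for Ccn2.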

How the data were processed

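RNA-seq was performed by the authors on 3 CTL and 3 Nelfb-/- cultures after 14 days. Reads had been aligned to mm10, and the submitters' processing notes name STAR 2.7 and Partek 9.0.20.0202. The counting is not given in the sources used here. The unit of the deposited table is CPM, with an added offset of 0.0001, which was subtracted. Genes whose highest library had fewer than 10 reads were already absent. The lowest values rose in steps worth 1 read, which gave the depth (17180000 to 29410000 reads). Between 72.4% and 75.0% of values of up to 20 reads were whole (within 0.05 reads), so no count-based test was run. CPM was rescaled to reads at 1 depth for all libraries, 22330000. Log2(value + 1) was then fitted in limma 3.58.1 under R 4.3.3, with an abundance trend, for genes whose mean reached 10 reads (0.448 CPM), and p was adjusted by Benjamini-Hochberg over all 16252 genes. Fold changes on this scale understate those of low genes. In simulated libraries, 122 of 200 genes changed 4-fold and 2 unchanged genes were called.

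Positions are from the authors' table and Ensembl IDs and exon lengths (the union of all exons) from GENCODE vM21 (GRCm38), in which 17520 genes were matched and 99.0% of these had the same start and end. Whether reads were counted by strand is not given in the sources used here, so that reads of Tead1, Tead2, Ccn2 and their overlapping partners may be mixed. The same holds for Yap1 (Gm20416, 11167 bases), Wwtr1 (Gm16016, 550 bases) and Tead4 (Gm21893, 397 bases). Their partners lie on the opposite strand and are not among the listed genes. Genes named are the 10 genes, Nelfb, genes of the lists that passed the limits or had the lowest p, relatives and the nearest profiles. Axl, Gadd45a, Lats2, Ptpn14, Frmd6, Acta2, Tagln, Ccn3, Ccn4, Ankrd23, the adipocyte markers, Mbp, Tyr and Cd37 were named after their values were seen. The 10 genes and the lists, written from general knowledge, were chosen with earlier results of these data known. The alternatives were another pseudocount, filter, scaling or variance model, library weights, a replicate block and each library left out in turn. Vgll2, Ccn6 and Ankrd2 were not found by symbol among the listed genes and so were not analysed here.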

Additional observations from a re-analysis of the deposited data

How the results depend on the processing

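The number of the 10 genes past the limits was 1 in limma and was 2 with quantile normalisation (with Ankrd1), 2 with library weights (with Ccn2) and 2 with the replicate block (with Ccn2), and 0 to 1 with each library left out in turn. For the Hippo list it was 1, and it was 0 with median-of-ratios scaling and with quantile normalisation, 4 with library weights, 2 with the replicate block and 0 to 2 with a library left out. For the other targets it was 5 (4 higher, 1 lower), with 3 under quantile normalisation, 6 with library weights (3 higher, 3 lower, without Fjx1 and Igfbp3) and 0 to 3 with a library left out. Over all genes, 1824 passed, 4513 with library weights and between 426 (without Nelfb-/- replicate 3) and 2479 (without CTL replicate 3). The library weights rest on 1 library, since Nelfb-/- replicate 3 had a weight of 38.8 and the others 0.132 to 2.36. Under these weights Yap1 changed sign (0.0052), and Tead2 did so without CTL replicate 1 (0.031), CTL replicate 2 (0.0093) or Nelfb-/- replicate 1 (0.065), with a range from -0.2 to 0.065 over the 6 libraries left out. Tead4 lay between -2.54 and -1.67 over all 15 alternatives (limma, adjusted p 1.9e-05 to 0.13) and Ankrd1 between -1.31 and -0.53 (adjusted p 0.035 to 0.25). The causes were not tested. Whether the replicate numbers pair the libraries is not stated in the labels. The deviations of same-numbered libraries from their group means correlated at 0.515, -0.395 and 0.518 over genes, and CTL replicate 3 correlated best with Nelfb-/- replicate 2 (0.536). Deviations within a group of 3 depend on each other, so these correlations cannot decide it. With the replicate block 2175 genes passed, and Ccn2 had an adjusted p of 0.012 in limma at the same log2 fold change of 1.31. With library weights Ccn2 was at 2.81 (adjusted p = 0.00011), and without 1 library at 0.71 to 1.88 (adjusted p 0.080 to 0.52).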
